A study of Mus musculus with 8 samples.

Results

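The genotype by stage interaction asks, for each gene, whether the change from mouse embryonic stem (ES) cells to day 2 embryoid bodies (EBd2) differed between Skp1a knockout (KO) and floxed (fl/fl) cells. It is the log2 difference KO minus fl/fl in EBd2, less the same difference in ES cells. A negative value means that a gene rose less, or fell more, in KO than in fl/fl, and a positive value means the reverse. All 8 of the 8 libraries of the series entered it, in 4 groups of 2, and 16542 of its 36255 genes passed a filter on low counts and were tested.

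Poly(A)-selected RNA was sequenced from fl/fl ES cells (lots 1 and 2), ES cells labelled KO (lots 1 and 12), fl/fl EBd2 (lots 1 and 12) and EBd2 labelled KO (lots 1 and 2). The labels do not say what a lot is, how the knockout was made, with which Cre or agent, or how many clones were used, so a p-value here speaks to the spread of these libraries alone, and that spread could be technical. The tissue field names KO libraries as ES cells and fl/fl libraries as embryoid bodies, against the titles, and groups follow the titles. Lot 2 occurs only in groups that enter the interaction with a plus sign and lot 12 only in groups with a minus sign, so any difference between those lots cannot be told apart from part of the interaction.

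SKP1, the protein of Skp1a, is the adaptor that joins CUL1 to F-box proteins in SCF ubiquitin ligases. Polycomb repressive complex 2 (PRC2) methylates histone H3 and keeps many developmental genes silent in ES cells, and the title of the series concerns its turnover through SKP1A. When ES cells aggregate they leave naive pluripotency for a formative, epiblast-like state, and Wnt and Nodal signals then induce primitive streak, mesoderm and endoderm genes.

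Total counts were 21545868 to 23343471 in ES cell libraries and 7858452 to 10055667 in EBd2 libraries, and mitochondrial transcripts took 1.73% to 3.24% of counts. Levels below are CPM, counts scaled to library size after TMM normalization, with lot 1 first in each pair, and n = 2 libraries per group throughout. Log2 values carry a standard error, taken from the F statistic and approximate at low counts. "Called" means an adjusted p of at most 0.05 in the edgeR quasi-likelihood test with Benjamini-Hochberg correction over all tested genes. The 6 ES cell markers summed to 2880 and 2910 CPM in fl/fl ES cells, against 2570 and 2520 in KO ES cells, and 1910 and 1850 in fl/fl EBd2, beside 1600 and 1540 in KO EBd2. The 4 epiblast markers summed to 1670 and 1790 in fl/fl EBd2 but 306 and 321 in KO EBd2.

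Skp1a itself (chr11:52231995-52246858, GRCm38, + strand) stood at 420.2 and 430.3 CPM in fl/fl ES cells, against 368.9 and 361.3 in KO ES cells, and 401.4 and 389.1 in fl/fl EBd2, beside 285.8 and 289.6 in KO EBd2. The libraries labelled KO were the lower at each stage without overlap, yet most of the transcript was still counted in them. Its interaction was -0.24 ± 0.05 (edgeR adjusted p = 0.00159), and with scaling by total counts alone it was no longer called (adjusted p = 0.171). Gene-level counts cannot tell which exons remain, and the genotype here is the labelled one.

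The stage responses of the genotypes differed at 7948 genes (48% of those tested), with 3704 higher (22.4%) and 4244 lower (25.7%) in the interaction. Most differences were modest, with a median size of 0.66 on the log2 scale among called genes. At least 2-fold differences were found for 1615 genes higher (9.76%) and 877 lower (5.3%). With scaling by total counts alone, the median over all genes was 0.15 in place of -0.0036 and 62.6% of called genes were higher, against 46.6% with TMM, so a direction near 0 depends on the scaling. Of the 2492 genes with a 2-fold difference, 2459 (98.7%) kept its sign when plain CPM differences were used in place of ratios.

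Induction of genes in KO went both short of and beyond that in fl/fl. Of the 1235 genes that rose at least 2-fold in fl/fl, 584 also did so in KO (7.47% of tested genes rose so in fl/fl and 11.6% in KO), which is 47.3% of the fl/fl genes and 30.4% of the 1918 that rose in KO. Their median change was 1.62 in fl/fl, where they were chosen, and 1.0 in KO. Of the 1570 genes that fell in fl/fl (9.49% of tested genes, against 8.02% in KO), 578 also fell in KO (36.8% of these and 43.6% of the 1327 that fell in KO), with medians of -1.77 and -0.73. For genes chosen in KO the order turned, with medians of 0.64 in fl/fl and 1.78 in KO for rises, and -0.96 and -1.51 for falls. Choosing in either genotype lowers the median of the other, so these shares describe the lists only. Across the 16542 genes the responses had a Pearson correlation of 0.443 (Spearman 0.439), a description over genes from libraries that share no sample.

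The 2492 genes were sorted by whether the gene rose or fell (called and at least 2-fold) or did neither in each genotype. The sorting uses the measured responses, so its counts describe and are not tested. Blocked induction, a rise in fl/fl alone, held 316 genes (1.91% of those tested), and ectopic induction, a rise in KO alone, held 574 (3.47%). Blocked repression, a fall in fl/fl alone, held 507 (3.06%), and ectopic repression, a fall in KO alone, held 250 (1.51%). Opposite responses were fewer, with 30 inductions that became falls in KO (0.181%) and 83 repressions that became rises (0.502%). The rest were 69 enhanced (0.417%) and 38 damped inductions (0.23%), 13 enhanced (0.0786%) and 91 damped repressions (0.55%), and 521 genes with a 2-fold response in neither genotype (3.15%). The stage changes of the genotypes, taken library by library, did not overlap for 2483 of the 2492 genes, as for 65.3% of all tested genes.

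**Figure D1:**
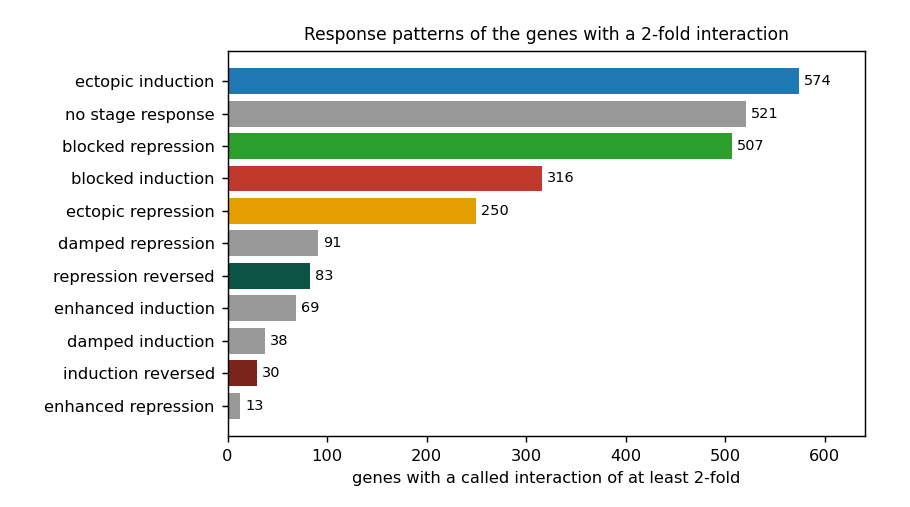
Number of genes (horizontal axis) in each response pattern among the 2492 genes with a called interaction of at least 2-fold. Ectopic induction (574) and blocked repression (507) were larger than blocked induction (316) and ectopic repression (250), and the reversed patterns held 30 and 83 genes.

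The limits of 2-fold are not natural breaks. Just inside blocked induction was Ptpn13 at -1.001 and just outside Mapk4 at -0.9969, with rises of 1.39 and 1.56 in fl/fl. For ectopic induction the neighbours were Sowahb (1.002, inside) and Slc37a2 (0.9988, outside). Most of the differences arose on the EBd2 side: the genotype difference was larger in EBd2 than in ES cells for 276 of 316 blocked inductions (87.3%), 565 of 574 ectopic inductions (98.4%) and 504 of 507 blocked repressions (99.4%).

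**Figure D2:**
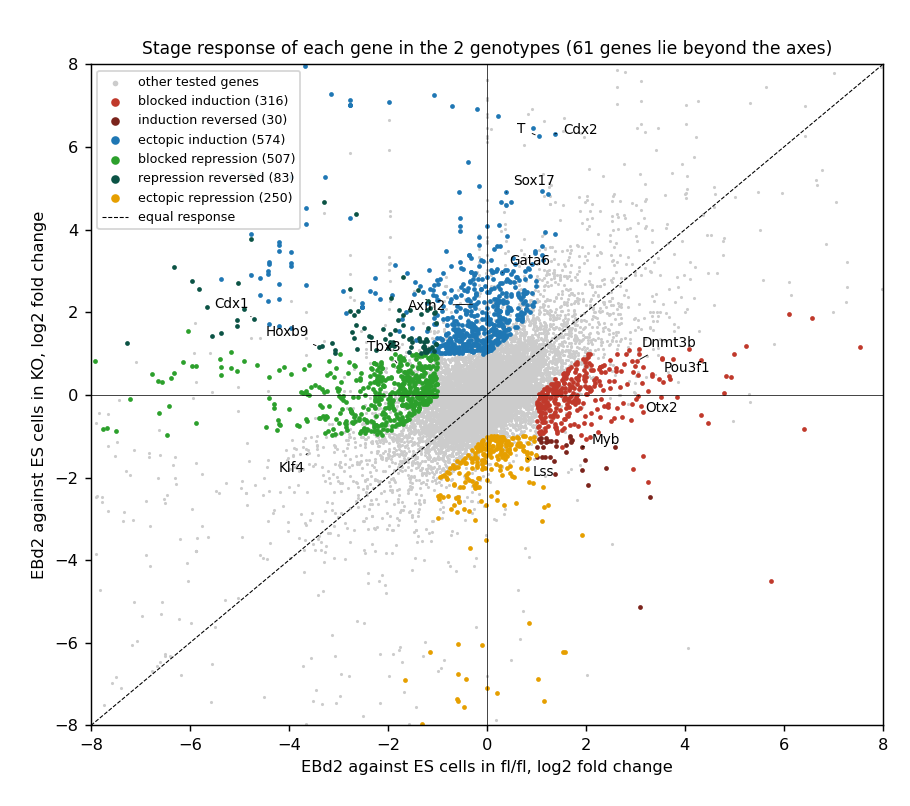
Log2 change from ES cells to EBd2 in fl/fl (horizontal) and in KO (vertical) for each tested gene, coloured by pattern, with 61 genes beyond the axes. Genes on the dashed line responded alike. Otx2, Pou3f1 and Dnmt3b lie to the right near 0 in KO, T, Sox17 and Cdx2 at the top near 0 to 1.4 in fl/fl, and Cdx1 and Hoxb9 in the upper left.

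Blocked inductions took in part of the formative epiblast programme. Of 21 formative and primed epiblast genes tested, 16 were lower in the interaction, 3 higher and 2 not called, against 25.7% lower and 22.4% higher over all genes. These shares are the background for the interaction counts of every later list. The list's median change was 1.60 in fl/fl and 0.51 in KO, and its median interaction was -1.31. By pattern, 7 were blocked inductions, 3 damped, 1 reversed, 1 a blocked repression and 1 without a 2-fold response. A called rise of any size was found for 15 of the 21 in KO, against 19 in fl/fl. Blocked thus means less than a called 2-fold rise in KO, not the absence of a rise.

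Otx2, a homeobox factor of the epiblast (chr14:48657677-48673819, GRCm38, - strand), stood at 10.8 and 10.5 CPM in fl/fl ES cells, against 9.54 and 9.73 in KO ES cells, and 81.5 and 96 in fl/fl EBd2, beside 10.2 and 8.85 in KO EBd2. Only the fl/fl EBd2 libraries were high. Its change was 3.06 in fl/fl and -0.02 in KO, an interaction of -3.08 ± 0.16 (edgeR adjusted p = 7.44e-08). Pou3f1, a POU factor of the same state, was at 13.7 and 12 CPM in fl/fl ES cells, against 13.9 and 13.3 in KO ES cells, and 124.4 and 136.4 in fl/fl EBd2, beside 17.7 and 19.7 in KO EBd2. A small rise was thus left in KO, 0.46 against 3.35, and the interaction was -2.88 ± 0.13.

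Both de novo DNA methyltransferases were blocked as well. Dnmt3b was at 174.8 and 181.3 CPM in fl/fl ES cells, against 146.3 and 154.3 in KO ES cells, and 1405 and 1499 in fl/fl EBd2, beside 257.8 and 271.9 in KO EBd2. KO EBd2 libraries were above both ES groups but far below fl/fl EBd2 (interaction -2.21 ± 0.06, edgeR adjusted p = 2.77e-09). Dnmt3a rose by 1.70 in fl/fl and 0.39 in KO. The zinc finger gene Zic2, active in the epiblast and neural plate, gave changes of 3.33 and 0.51. Over the 16 DNA methylation genes 5 were higher and 6 lower, with a median of -0.02. Tet2, which oxidises methylcytosine, fell by 1.71 in fl/fl and by 0.55 in KO.

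Fgf5, the classic formative marker, behaved otherwise. It was at 0.539 and 0.537 CPM in fl/fl ES cells, against 0.892 and 0.278 in KO ES cells, and 57.1 and 54.2 in fl/fl EBd2, beside 20.1 and 20.5 in KO EBd2. It thus rose in both genotypes, by 6.67 and 5.08, to a lower level in KO. The damping of -1.59 ± 0.46 (edgeR adjusted p = 0.0142) rests on few counts in ES cells: it was not called without KO ES cell lot 1 (-0.52, adjusted p = 0.583) or with counts thinned to equal depth (adjusted p = 0.503).

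Blocked inductions with the smallest p included other regulators. Bend3, a BEN domain repressor of heterochromatin, went from 43.4 and 43.5 to 240.6 and 242.8 CPM in fl/fl and from 41 and 41.7 to 65.2 and 62.9 in KO. The transporter gene Abcc4 rose by 1.57 in fl/fl and changed by 0.07 in KO (adjusted p = 0.16). Sall1, a zinc finger factor, rose by 1.28 and fell by 0.36. Among genes with the largest negative values were Bcl11a, a zinc finger repressor (-4.38 ± 0.38), and Etv2, an ETS factor of blood and vessel precursors (-3.88 ± 0.62), which counted under 1 CPM in each ES cell library and rose only in fl/fl. In all 37 of the 316 blocked inductions were at least 2-fold higher in KO than in fl/fl ES cells, 17 of them called. A genotype difference in ES cells of any size and direction was called for 92 of the 316 (29.1%), against 23.7% of all tested genes.

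Nodal feedback genes were in the same pattern. Lefty1, a secreted Nodal antagonist, was at 114.5 and 112.5 CPM in fl/fl ES cells, against 130.3 and 128 in KO ES cells, and 316.6 and 276.1 in fl/fl EBd2, beside 96.8 and 97.3 in KO EBd2. It rose by 1.38 in fl/fl and fell by 0.41 in KO. Its neighbour Lefty2 gave 1.15 and -0.26, whereas the ligand gene Nodal rose more in KO, by 1.83 against 0.63. Of 11 Nodal targets and antagonists 7 were lower and 3 higher (median -1.06). Of 17 FGF and ERK feedback genes 7 were higher and 8 lower. There Spry1 (0.78 in fl/fl and -0.79 in KO) and Etv4 (-0.91 and 0.41) moved in opposite ways.

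General pluripotency genes followed: 10 of 13 were lower and 2 higher (median -0.60). The RNA-binding protein gene Lin28a was at 320 and 325 CPM in fl/fl ES cells, against 248.7 and 253.5 in KO ES cells, and 620.8 and 610.3 in fl/fl EBd2, beside 180.2 and 175.3 in KO EBd2. It rose in fl/fl (0.93) and fell in KO (-0.50), each by less than 2-fold. Pou5f1, the core factor OCT4, changed by -0.06 in fl/fl (adjusted p = 0.16) and fell by 0.49 in KO.

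Inductions that turned into falls were 30. Myb, a transcription factor of proliferating progenitors, was at 23 and 21.1 CPM in fl/fl ES cells, against 20.7 and 21.6 in KO ES cells, and 79.1 and 88.7 in fl/fl EBd2, beside 9.99 and 7.69 in KO EBd2. The ES cell groups overlapped, and the EBd2 groups lay on opposite sides of them. Its interaction was -3.19 ± 0.15 (edgeR adjusted p = 4.31e-08), from 1.93 in fl/fl and -1.26 in KO. Ptch1, the Hedgehog receptor, went from 147.6 and 143.7 to 318.3 and 348.9 CPM in fl/fl and from 108.7 and 109.9 to 50 and 49 in KO. Zic5 (1.60 and -1.22) and the membrane-bound factor gene Myrf (1.10 and -1.14) did likewise. The zinc finger gene Insm1 (1.98 and -1.57) and the carbonic anhydrase gene Car14 (2.59 and -1.27) had the largest reversals among those named. This group depends most on the limits, since it held 19 genes with DESeq2 and 121 when a 1.5-fold response was enough.

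**Figure D3:**
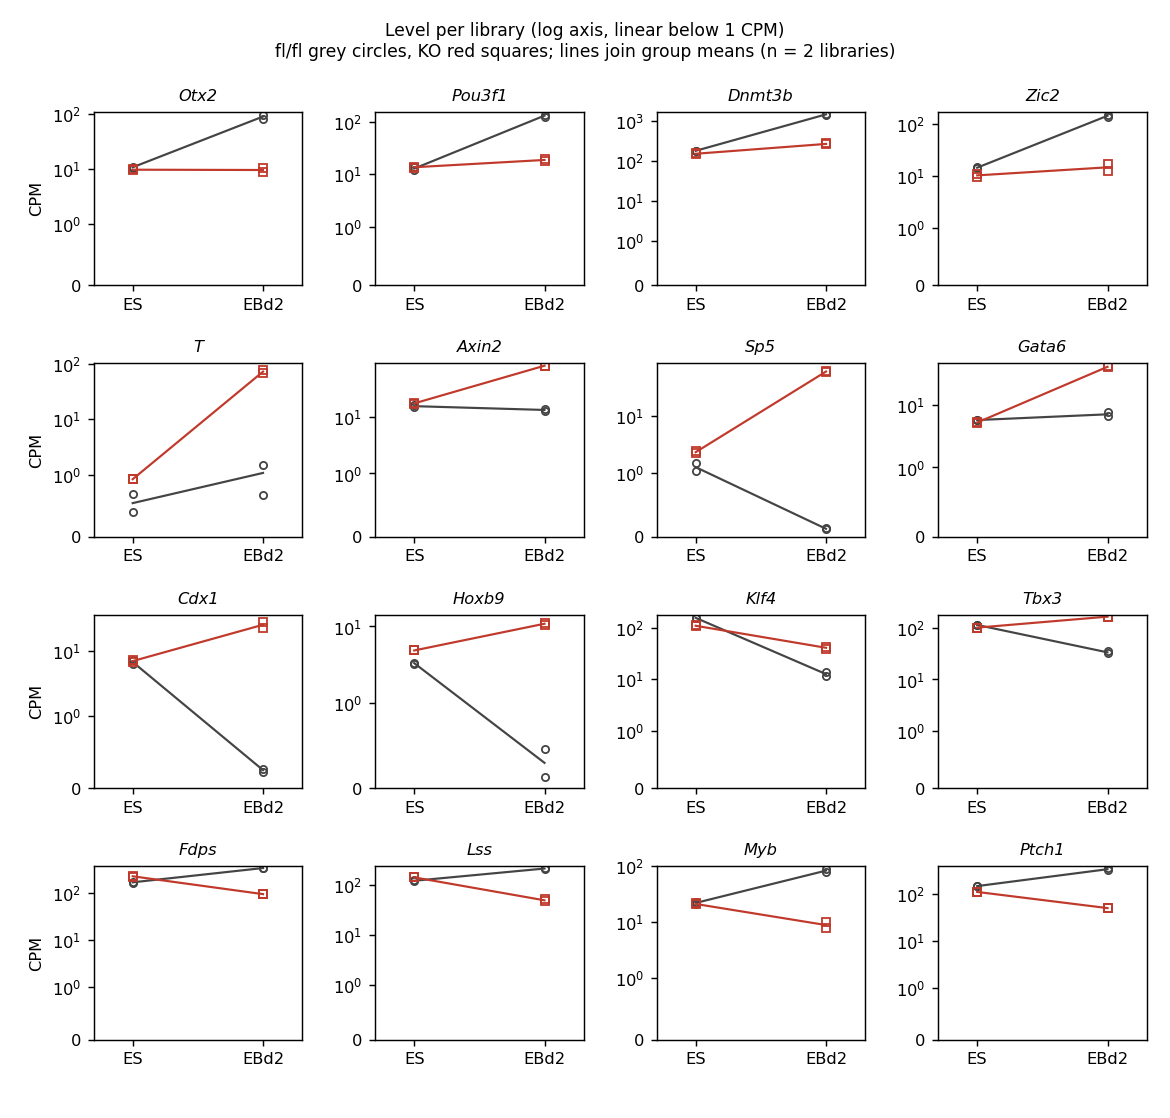
Level in CPM (vertical, log axis that is linear below 1) of 16 genes in ES cells and EBd2, with each library as a point, fl/fl in grey circles and KO in red squares, and lines between group means. In the top row only fl/fl EBd2 is high (Otx2 at 81.5 and 96), and in the second only KO EBd2 (T at 68.2 and 75.9). In the lower rows the lines of Klf4, Tbx3, Fdps and Lss cross. Those of Cdx1, Hoxb9, Myb and Ptch1 move apart without crossing.

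Cholesterol synthesis was the list whose genotype difference turned over between stages. Of its 25 genes, 24 were lower in the interaction and 1 higher, against 25.7% and 22.4% over all genes. KO was above fl/fl in ES cells and below it in EBd2, both called, for 20 of the 25, with medians of 0.24 and -1.08. Over all tested genes 264 (1.6%) showed that order. The list's stage response was 0.50 in fl/fl and -0.71 in KO, both medians. By pattern 11 had no 2-fold response in either genotype, 6 were ectopic repressions, 2 blocked inductions and 1 reversed.

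Fdps, farnesyl diphosphate synthase (chr3:89093588-89101959, GRCm38, - strand), was at 168.9 and 164.8 CPM in fl/fl ES cells, against 226.5 and 221.5 in KO ES cells, and 327.6 and 341.8 in fl/fl EBd2, beside 93.9 and 93.7 in KO EBd2. No groups overlapped, and KO was the highest group of ES cells and the lowest of EBd2. The interaction was -2.26 ± 0.05 (edgeR adjusted p = 8.78e-10). Lss, lanosterol synthase, went from 124.8 and 120.5 to 210.4 and 222.1 CPM in fl/fl, and from 144.4 and 142.9 to 47.5 and 51.6 in KO (-2.35 ± 0.07). Mvd, Sqle, Idi1 and Hmgcs1, which act earlier in the pathway or at squalene, gave interactions of -2.15, -1.78, -1.56 and -1.36. Insig1, the sterol-responsive regulator of that pathway, was at -1.33.

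**Figure D4:**
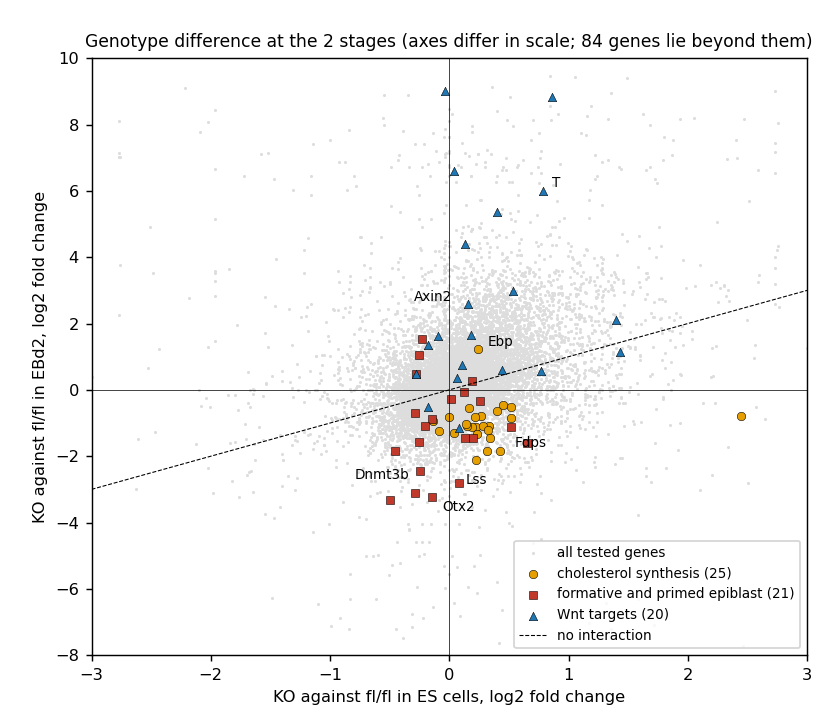
Log2 difference KO minus fl/fl in ES cells (horizontal) and in EBd2 (vertical) per tested gene, on axes of different scale, with 84 genes beyond them. Genes on the dashed line had no interaction. Cholesterol genes (orange) gather at the lower right, formative genes (red) mostly below 0, and Wnt targets (blue) mostly above it.

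Such reversals were a minority of genotype differences. It was called for 23.7% of tested genes in ES cells and 62.2% in EBd2. Both stages had a called difference for 3177 genes, with the same sign in 2688 (84.6%) and opposite signs in 489 (15.4%). Only 38 were at least 1.5-fold in opposite directions. For 5148 genes the difference was called in EBd2 alone with a called interaction, and for 935 it had one direction at both stages with no interaction called. Of 329 genes the difference was called in ES cells alone with an interaction.

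Ectopic inductions in KO EBd2 included genes of the Wnt response. Of 20 Wnt targets 13 were higher in the interaction and 2 lower, with medians of 0.28 in fl/fl and 2.02 in KO, and 7 were ectopic inductions. Axin2, a feedback inhibitor that Wnt signalling induces in most tissues, was at 15.9 and 14.6 CPM in fl/fl ES cells, against 16.7 and 17.4 in KO ES cells, and 12.3 and 13.9 in fl/fl EBd2, beside 78.6 and 77.8 in KO EBd2. Only KO EBd2 stood apart, and the interaction was 2.42 ± 0.12 (edgeR adjusted p = 5.79e-08). Tnfrsf19, a receptor gene of the tumour necrosis factor family, changed by 0.14 in fl/fl (adjusted p = 0.43) and rose by 2.58 in KO.

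Sp5, a zinc finger target of Wnt signalling (chr2:70474923-70477729, GRCm38, + strand), was at 1.48 and 1.08 CPM in fl/fl ES cells, against 2.45 and 2.23 in KO ES cells, and 0.135 and 0.115 in fl/fl EBd2, beside 61 and 59.4 in KO EBd2. It ran in opposite directions in the genotypes. In fl/fl 55 counts went to 2, a 10.3-fold fall with a counting interval of 2.73 to 87.6 (95%), while in KO it rose 25.7-fold (21 to 31.7). The fitted interaction of 7.97 ± 0.41 is not a bound at such counts. RefSeq gives a promoter window, from 250 bases before the start to 50 after, for 12 of the 20 Wnt targets, too few for a share over the list. The stretch before the Sp5 start (chr2:70474794-70474850, GRCm38.p6, + strand) is shown because it holds CTTTGAT, the TCF/LEF motif searched on both strands, in capitals with its first base at -104 from the start. That motif was in 403 of the 15095 windows of tested genes (2.67%), and a match describes letters, not binding.
Sp5: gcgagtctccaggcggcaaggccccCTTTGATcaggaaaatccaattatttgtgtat

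Part of the primitive streak and caudal genes did likewise. T (brachyury), the T-box factor of streak and notochord (chr17:8434423-8442496, GRCm38, + strand), stood at 0.404 and 0.684 CPM in fl/fl ES cells, against 0.936 and 0.927 in KO ES cells, and 0.675 and 1.5 in fl/fl EBd2, beside 68.2 and 75.9 in KO EBd2. It was near absent in all but KO EBd2 (interaction 5.22 ± 0.53, edgeR adjusted p = 1.05e-05). Eomes, a T-box factor of streak and trophoblast, was at 13 and 12.9 CPM in fl/fl ES cells, against 12.7 and 15.6 in KO ES cells, and 15.9 and 14.2 in fl/fl EBd2, beside 64.1 and 62.6 in KO EBd2. Of 17 streak genes tested 8 were higher and 2 lower (median 1.2), the lower pair being Lefty1 and Lefty2, which the Nodal list also holds. With counts thinned to equal depth 5 were higher.

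Of 14 caudal epiblast and tailbud genes 8 were higher and 2 lower (median 1.54), and without fl/fl ES cell lot 1 the number higher was 5. Cdx1, a caudal homeobox gene, was at 7.14 and 6.2 CPM in fl/fl ES cells, against 6.69 and 7.09 in KO ES cells, and 0.27 and 0.231 in fl/fl EBd2, beside 27.1 and 22.5 in KO EBd2. It fell in fl/fl (-4.70, with 4 counts left in EBd2) and rose in KO (1.85). Cdx2 was under 0.6 CPM in every library but those of KO EBd2, at 20.2 and 21. Wnt8a rose in both genotypes, by 2.06 in fl/fl and 4.08 in KO. Mesoderm (6 higher and 3 lower of 19) and BMP targets (5 and 2 of 14) split more evenly, against 22.4% and 25.7% over all genes. In these Bmp4 kept its level in KO (0.08, adjusted p = 0.46) while falling by 2.27 in fl/fl, and Msx2 rose by 2.43 in KO. Neuroectoderm genes had 2 of 15 higher and 6 lower (median -0.29).

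Extraembryonic endoderm genes rose in both genotypes by the list median, and more so in KO. Of 27 primitive and visceral endoderm genes 20 were higher and none lower in the main test, though 1 was lower without KO EBd2 lot 2. Medians were 1.25 in fl/fl and 2.97 in KO, with 8 enhanced and 8 ectopic inductions. The members not called were Ttr, Apoa1, Apoa4, Apob, Hnf4a, Foxa2 and Fgfr3, with negative values for Apoa1, Apoa4 and Fgfr3. Apoe, Amn and Cubn were among those called higher. Col4a1, a basement membrane collagen, was at 164.1 and 163.6 CPM in fl/fl ES cells, against 175.6 and 180.1 in KO ES cells, and 242.5 and 247.7 in fl/fl EBd2, beside 1309 and 1280 in KO EBd2. KO EBd2 exceeded every other library (interaction 2.28 ± 0.05, edgeR adjusted p = 7.35e-10). Gata6, a master factor of primitive endoderm, was at 5.79 and 5.72 CPM in fl/fl ES cells, against 5.17 and 5.33 in KO ES cells, and 6.61 and 7.62 in fl/fl EBd2, beside 42.1 and 40.1 in KO EBd2.

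Sox17 changed by 0.39 in fl/fl (adjusted p = 0.19) and rose by 4.91 in KO, and Gata4 gave 0.78 and 2.81. Dab2, an endocytic adaptor of that lineage, was an enhanced induction, with 2.49 and 3.73. The 6 markers fixed for primitive endoderm summed to 56.1 and 59.3 CPM in fl/fl ES cells, against 48.4 and 50 in KO ES cells, and 178 and 183 in fl/fl EBd2, beside 496 and 504 in KO EBd2, with none at 0. In bulk RNA more cells of a type and more RNA per cell cannot be told apart, here and in all that follows.

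Genes of other lineages joined the ectopic group. Of 18 trophectoderm genes 13 were higher and 1 lower (median 1.62), and Krt8, a simple-epithelium keratin, went from 53 and 51.3 to 71.5 and 73.3 CPM in fl/fl and from 78.4 and 82.9 to 350.5 and 344.1 in KO. The 5 markers fixed for trophectoderm summed to 156 and 157 CPM in fl/fl ES cells, against 130 and 134 in KO ES cells, and 113 and 109 in fl/fl EBd2, beside 127 and 121 in KO EBd2. Their sum was thus lower in EBd2 than in ES cells in both genotypes, and less so in KO, and Elf5 was at 0 in 1 fl/fl EBd2 library. Of 20 genes of the 2-cell-like state 15 were higher and none lower (median 2.65), 14 of them ectopic inductions. Many are near-identical copies at low counts, so single values such as those of Zscan4d (9.01 and 12 CPM in KO EBd2, 0.81 to 1.27 elsewhere) are uncertain, and 7 were called with counts thinned to equal depth. Of 14 keratinocyte genes 8 were higher and none lower. Their median was 3.42, or 2.42 with groups at 0 counts set to the floor of 3 counts per group. In this and the earlier lists of ectopic inductions, genes that passed the filter through KO EBd2 alone had to be higher. The counts of such lists describe only. These lists also share members, so they are not separate results. T, Cdx1 and Cdx2 are also in the Wnt list, and Evx1 is in both the streak and the caudal list. Cdx2, Eomes, Gata2 and Hand1 of the trophectoderm list recur in streak, caudal, BMP, mesoderm or Polycomb lists.

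Sprr2a2, a cornified envelope gene, was at 88.7 and 87.1 CPM in KO EBd2 and under 0.72 in every other library, and its fl/fl EBd2 group held 3 counts. KO EBd2 was 471 times that group, with a counting interval of 161 to 2290 (95%). Sprr2a1 and Sprr2a3 of the same family, also tested, had positive interactions that were not called. The handling of reads shared by such copies is unknown, so the Sprr2a2 ratio is uncertain beyond that interval. The imprinted genes Igf2, an embryonic growth factor, and Peg10, a placental retrotransposon-derived gene, were ectopic inductions of broad expression. Igf2 went from 108.2 and 107.5 to 73.8 and 74.3 CPM in fl/fl and from 135 and 140.1 to 414.4 and 391.6 in KO, and Peg10 fell by 0.50 and rose by 1.48. Msln, mesothelin, was at 3.82 and 3.66 CPM in fl/fl ES cells, 20.3 and 18.9 in KO ES cells, 0 in both fl/fl EBd2 libraries, and 27.3 and 31.3 in KO EBd2. Its fall in fl/fl was at least 20.1-fold, with the floor of 3 counts over the group, against a 1.5-fold rise in KO (1.35 to 1.66).

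Repression was incomplete in KO for part of the naive pluripotency genes. Of 18, 11 were higher and 4 lower (median 0.42, with medians of -1.01 in fl/fl and -0.63 in KO). Klf4, a Krüppel-like factor of the naive state, was at 154.7 and 156.8 CPM in fl/fl ES cells, against 111.7 and 107.2 in KO ES cells, and 13.8 and 11.5 in fl/fl EBd2, beside 42.4 and 39.5 in KO EBd2. KO began lower and ended higher (interaction 2.21 ± 0.10, edgeR adjusted p = 3.86e-08). Tbx3, a T-box factor, was at 113.3 and 115.2 CPM in fl/fl ES cells, against 101.4 and 101.4 in KO ES cells, and 35.1 and 32.1 in fl/fl EBd2, beside 165.6 and 165.8 in KO EBd2. It fell in fl/fl and rose in KO, though by less than 2-fold there.

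Tfcp2l1 fell by 2.47 in fl/fl and 1.2 in KO, Klf5 by 1.46 and 0.26, and Nanog by 1.21 and 0.53. Esrrb and Zfp42 barely differed, in opposite directions. Their interactions were -0.18 ± 0.06 (edgeR adjusted p = 0.031) and 0.19 ± 0.06 (0.021). Neither call held under every left-out library, with the Esrrb call lost without fl/fl ES cell lot 1 or 2, KO ES cell lot 12, fl/fl EBd2 lot 1 or KO EBd2 lot 2. That of Zfp42 was lost without fl/fl ES cell lot 2, KO ES cell lot 12, fl/fl EBd2 lot 12 or KO EBd2 lot 1. On plain CPM differences Esrrb had the opposite sign (61.5 CPM).

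Hox genes, which Polycomb silences in ES cells, were at low levels. Of 29 tested 14 fell in fl/fl, against 30.1% of all tested genes. In the interaction 20 were higher and none lower, against 22.4% and 25.7% over all genes. Medians were -1.85 in fl/fl and 1.10 in KO. The median interaction was 3.02, or 2.92 with groups at 0 counts set to the floor. By pattern 7 were reversed repressions, 5 blocked repressions and 5 ectopic inductions. Genes that passed the filter through KO EBd2 alone had to differ, and with a stricter filter on the mean level 5 were called. Hoxb9 was at 3.28 and 3.37 CPM in fl/fl ES cells, against 4.86 and 4.87 in KO ES cells, and 0.135 and 0.462 in fl/fl EBd2, beside 11.3 and 10.5 in KO EBd2. Its EBd2 groups did not overlap, with fl/fl the lowest group and KO the highest. Of 41 other developmental regulators held by Polycomb 15 were higher and 7 lower (median 0.94).

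The Polycomb subunits themselves responded weakly. Of 13 PRC2 subunits and partners 6 were higher and 2 lower, none by 2-fold (median 0.30). Ezh2, the methyltransferase, was at 252.8 and 264.6 CPM in fl/fl ES cells, against 244.5 and 247.5 in KO ES cells, and 178.1 and 190.3 in fl/fl EBd2, beside 214.4 and 217.5 in KO EBd2. It fell in both genotypes and less in KO (interaction 0.30 ± 0.06, edgeR adjusted p = 0.00103). Eed was at 0.43 ± 0.07 and the partner Epop at 0.96 ± 0.07, while Suz12 was at 0.05 ± 0.05 (adjusted p = 0.37) and Jarid2 at -0.08 ± 0.05 (0.256). Suz12 was called with scaling by total counts alone (0.21, adjusted p = 0.00261). Of 26 PRC1 subunits 7 were higher and 9 lower, against 22.4% and 25.7% over all genes. Phc1, a polyhomeotic subunit, was at -0.86 and Kdm2b, which recruits PRC1 to CpG islands, at -0.79.

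SCF core and F-box genes were near the background, with 4 of 28 higher, 9 lower and none by 2-fold. Rbx1, the RING subunit, was at -0.58 and Ccnf, the F-box protein cyclin F, at 0.58. Ccne1, cyclin E1, an SCF substrate, rose by 0.13 in fl/fl and 0.45 in KO. G1/S and E2F targets split into 9 higher and 10 lower of 25. Of 24 p53 targets 15 were higher and 2 lower (median 0.54), with Cdkn1a, the p21 inhibitor of cyclin-dependent kinases, from 70.7 and 70.5 to 61.7 and 61 CPM in fl/fl and from 78 and 78.3 to 141.3 and 136.7 in KO.

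Most germline genes were higher in the interaction, although 8 of the list fell in KO, where 33.1% of all tested genes fell. Of 28 tested 20 were higher and 3 lower (median 1.5, from -0.67 in fl/fl and 0.51 in KO). Tex11, a meiotic gene, was at 7.37 and 6.94 CPM in fl/fl ES cells, against 9.86 and 11.7 in KO ES cells, and 3.24 and 3 in fl/fl EBd2, beside 43.4 and 45.9 in KO EBd2. Stag3, a meiotic cohesin subunit, went from 79.7 and 76.2 to 36.6 and 41.2 CPM in fl/fl and from 84.2 and 85.4 to 118.7 and 125.3 in KO. Piwil2, which binds small RNAs that silence transposons, gave -1.65 and 0.40, and Prdm1, a germ cell repressor, went the other way, at 0.52 and -0.94.

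RefSeq promoter windows were given for 24 of the 28 germline genes. The E-box CACGTG, which reads the same on both strands, was in 15 of their 29 windows (51.7%), against 1440 of 15095 windows of all tested genes (9.54%). Of 12 genes with it 11 were higher and none lower (median 1.52), and of 12 without it 7 were higher and 2 lower (median 1.35). Whether the motif bears on the response was not tested. Stretches before the start of 4 of these genes, chosen after their values were seen, are given with the E-box in capitals from GRCm38.p6. They are Taf7l (chrX:134476509-134476564, - strand, interaction 2.50), Brdt (chr5:107331091-107331146, + strand, 2.26), Slc25a31 (chr3:40708753-40708808, + strand, 1.91) and Hormad1 (chr3:95559595-95559650, + strand, 1.66).
Taf7l: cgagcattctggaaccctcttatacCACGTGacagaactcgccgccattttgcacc
Brdt: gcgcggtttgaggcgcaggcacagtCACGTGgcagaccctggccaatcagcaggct
Slc25a31: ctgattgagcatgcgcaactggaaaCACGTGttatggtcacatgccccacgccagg
Hormad1: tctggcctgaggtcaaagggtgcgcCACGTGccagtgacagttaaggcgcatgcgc

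In Taf7l, a testis form of a TFIID subunit, the levels behind this were 4.45 and 3.66 CPM in fl/fl ES cells, against 5.4 and 5.01 in KO ES cells, and 3.64 and 2.42 in fl/fl EBd2, beside 21.9 and 21.4 in KO EBd2. Across all patterns 11878 of 16542 genes (71.8%) had a window, under the 80% set as the least, so motif and CpG shares of the patterns are void and not given. The E-box and TCF/LEF shares over all tested genes rest on the same windows. They describe only the genes that have one.

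Most fibroblast markers fell less in KO than in fl/fl. Of 19 feeder-type markers tested 15 were higher and 1 lower, 9 of them damped and 5 blocked repressions, with medians of -2.83 in fl/fl and -1.28 in KO. Col1a2, a fibrillar collagen, was at 137.4 and 133.1 CPM in fl/fl ES cells, against 149.9 and 169.1 in KO ES cells, and 5.4 and 5.08 in fl/fl EBd2, beside 36.4 and 34.2 in KO EBd2. The 10 markers fixed for feeder cells summed to 587 to 622 CPM in fl/fl ES cells, 657 to 724 in KO ES cells, 59.4 to 63.2 in fl/fl EBd2 and 215 to 237 in KO EBd2. Lum was at 0 in 1 library of each EBd2 group and none was at 0 elsewhere.

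Tnc and Vim, of matrix and cytoskeleton, followed the same course, with interactions of 2.86 and 1.42. What part RNA of such cells had in the damped and blocked repressions was not tested. Among repressions that became rises, Nrp2, a co-receptor for semaphorins and VEGF, was at 49.5 and 47.8 CPM in fl/fl ES cells, against 37.7 and 39.1 in KO ES cells, and 19.4 and 20.7 in fl/fl EBd2, beside 87.3 and 88.3 in KO EBd2. Bmp1, a procollagen protease, Gsn, gelsolin, and Slc4a11, a membrane transporter, gave interactions of 2.55, 2.24 and 2.32.

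Genes of translation and glycolysis were more often lower than higher in the interaction. Of 82 ribosomal protein genes 77 were lower and 1 higher, with 1 of at least 2-fold in each direction and a median change of -0.09 in fl/fl and -0.71 in KO. Beyond 1.5-fold 21 were lower. Rps26 went from 891.2 and 898.4 to 876.4 and 831 CPM in fl/fl and from 774.1 and 788.6 to 377.6 and 378.7 in KO. Of 24 glycolysis and hypoxia genes 14 were lower and 4 higher. In the stage contrasts 22 fell in fl/fl and 24 in KO, against 30.1% and 33.1% of all tested genes. The enolase gene Eno1 fell by 0.23 in fl/fl and 1.13 in KO, and the oxygen-sensing hydroxylase gene Egln3 by 0.20 and 1.62, whereas the glucose transporter gene Slc2a3 fell by 1.49 and 0.23.

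Atf4, the integrated stress response factor, fell by 0.24 in fl/fl and 1.41 in KO, while its list split into 5 higher and 7 lower of 22. Sinhcaf, a subunit of the SIN3 repressor complex, was an ectopic repression of a broadly expressed gene, at 513.8 and 522.9 CPM in fl/fl ES cells, against 425.7 and 421.7 in KO ES cells, and 648.4 and 664.6 in fl/fl EBd2, beside 149.9 and 158.6 in KO EBd2. Of 13 mitochondrially encoded genes 8 were lower (median -0.30), and 2 with scaling by total counts alone. Of 5 replication-dependent histone genes tested, whose transcripts mostly lack a poly(A) tail, 1 was called, lower.

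**Figure D5:**
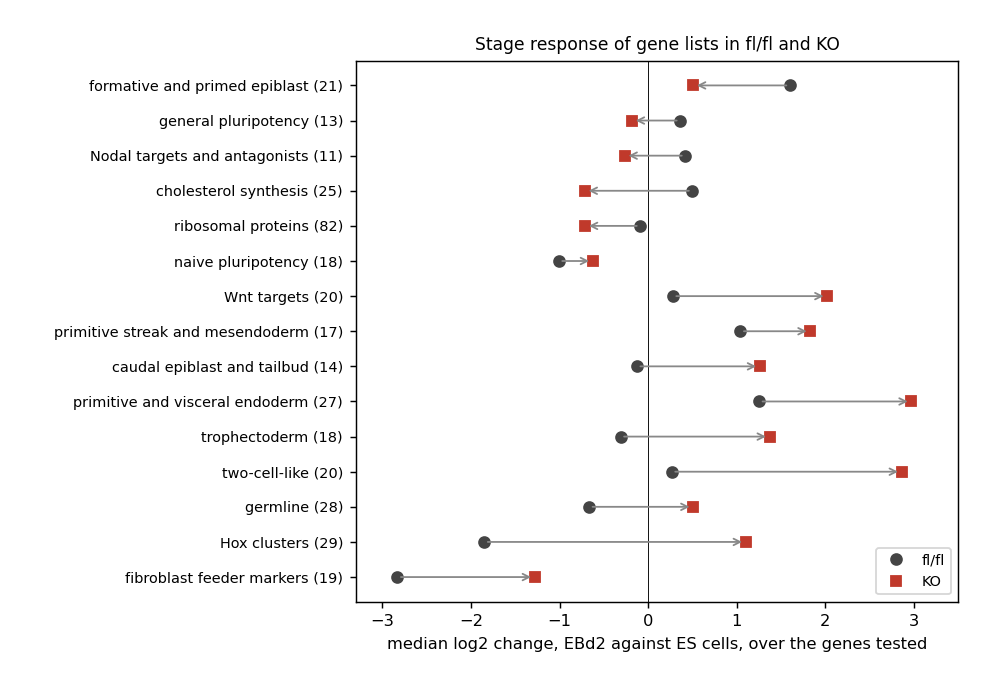
Median log2 change from ES cells to EBd2 over the tested genes of 15 lists (number in brackets), in fl/fl (grey circle) and KO (red square), with an arrow from fl/fl to KO. Formative genes go from 1.60 to 0.51 and cholesterol synthesis from 0.50 to -0.71, while Wnt targets go from 0.28 to 2.02 and Hox genes from -1.85 to 1.10.

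Some of these genes lie next to each other. Of the 16542 genes 16195 (97.9%) were placed once in the GENCODE vM21 annotation of GRCm38. Runs of at least 3 neighbouring tested genes with a 2-fold difference in the same direction numbered 48, of which 38 were higher (137 genes) and 10 lower (35 genes). Higher runs held Hoxd13 to Hoxd8 (chr2:74668310-74707933) and 5 Zscan4 genes (chr7:10794242-11166159). A lower run held 6 H2-Q genes of the major histocompatibility complex (chr17:35342242-35474563). Members of the Zscan4 and H2-Q families are near-identical, and their values are uncertain because the handling of shared reads is unknown. Chromosome medians ran from -0.09 to 0.06.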

How the data were processed

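Whole-number counts per gene symbol for 8 libraries were deposited by the authors as 1 table, with no normalization. Trim Galore 0.6.7, GRCm38 and mm10 are named, per the submitters' processing notes. Not given in the sources used here were aligner, counter, annotation, strand setting and handling of shared reads, so near-identical copies and antisense pairs are uncertain. Of 36255 genes 9800 were at 0 in all libraries.

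From these counts, R 4.3.3 with edgeR 4.0.16 fitted 4 group means to all 8 libraries after filterByExpr and TMM scaling, and glmQLFTest (two-sided) tested 5 contrasts, Benjamini-Hochberg adjusted over 16542 genes at 0.05. Common dispersion gave a coefficient of variation of 3.4% (residual df 4, prior df 7.05). Replicates differed by more than sampling noise (chi-square per degree of freedom 2.11 to 2.72), so none was counted as a repeat. Log2 CPM used a prior count of 2. Alternatives were RLE scaling and total counts alone, other filters, DESeq2 1.42.0, limma 3.58.1, a test beyond 1.5-fold, thinned counts, left-out libraries and lot terms.

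Named genes were Skp1a, the 6 largest rises and falls among called genes of at least 5 CPM, up to 6 with the smallest p from each pattern at 10 CPM or more, up to 4 from each of 31 lists, fixed markers, and neighbours of the 2-fold limits. Genes with no proper name were passed over. Lists and members were chosen with earlier results of these data known. Some genes that the rule names are not reported here. The code was tested on simulated data. Coordinates are from GENCODE and promoter sequences from RefSeq.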

Additional observations from a re-analysis of the deposited data

Results flagged for a closer look

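The stage effect differed between the genotypes, by the test of the interaction itself (edgeR quasi-likelihood, Benjamini-Hochberg), for 3704 genes higher and 4244 lower. Of the genes named under that test, those that moved in opposite directions in the genotypes, each at least 2-fold and called, included these. Inductions that became falls in KO were Car14 (-3.86), Insm1 (-3.55), Myb (-3.19), Zic5 (-2.825), Ptch1 (-2.34), Fdps (-2.26), Myrf (-2.235) and Duxbl2 (-2.12). Repressions that became rises were Cdx1 (6.55), Hoxb9 (4.54), Tex11 (3.25), Bmp1 (2.55), Nrp2 (2.47), Slc4a11 (2.32), Gsn (2.24) and Tfeb (2.135). Groups of 2 libraries are too small for an outlier check. The Duxbl2 gene has near-identical copies, so its value is uncertain.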

How the results depend on the processing

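No gene called in both the main test and an alternative changed sign, and called genes numbered 6465 with DESeq2 and 8256 without a filter, against 7948. With total counts alone reversed inductions fell to 19 genes and ectopic repressions to 163. DESeq2 gave 19 reversed inductions and 50 reversed repressions, the stricter filter 52 reversed repressions and equal depth 55. Testing beyond 1.5-fold left 1362 genes higher and 969 lower, with 17 reversed inductions and 37 reversed repressions. A 1.5-fold stage response gave 121 and 233 of these, and a 3-fold one 5 and 26, with 202 blocked inductions and 122 ectopic repressions. Interactions of any size gave 455 ectopic repressions. The cause of these shifts was not tested, beyond the limits themselves. Leaving out each library in turn left 6963 to 7285 genes called. On plain CPM differences Bnip3 (15.99), Esrrb (61.51) and Sh2d5 (0.6199) had the opposite sign, and over all settings 33 named genes lost a call at least once. Leaving out 529 possible feeder genes, chosen after the data were seen and partly by their own stage fall, removes damped repressions by construction, so its pattern counts are not given. The difference between the lots of a group, compared across groups, had correlations of -0.0223 to 0.0183 over genes. Those differences hold counting noise, so the correlations cannot show whether lots had a common effect. A replicate block on lots 1, 2 and 12 called 5619 genes, while lot 1 against the others called 7714. EBd2 libraries, at 7858452 to 10055667 counts, limit genes of a few counts: 294 of the 2492 genes had a group at 3 counts or fewer.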
